A study of Homo sapiens with 36 samples.

Results

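The NDRG (N-myc downstream-regulated gene) family comprises NDRG1, NDRG2, NDRG3 and NDRG4, and these 4 genes were taken by symbol from the 60591 genes of the mRNA count table. The proteins share an alpha/beta-hydrolase fold that has lost its catalytic residues, and the family is named after the repression of its founding member by the transcription factor N-myc. NDRG1 is a widely expressed stress gene that hypoxia, metal ions and iron chelators are known to induce, and in the gut it is found in the epithelium. NDRG2 and NDRG4 are best known from brain, heart and muscle and are often silenced in colorectal cancer, and NDRG3 is a protein that binds lactate and is broken down through prolyl hydroxylation in normal oxygen.

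The samples were Caco-2 and HT-29 cells, 2 established human colorectal cancer lines, in 6 groups of 3 mRNA libraries each, which the design text calls biological replicates. Caco-2 cells had been kept under differentiation conditions for 21 days and HT-29 cells had not, so line and culture state cannot be told apart. In each line, 1 group received 300 µM CoCl2, 1 group received 5 µM of an oxyquinoline derivative (OD, named Oxy in the library titles) and 1 group was the control. Both agents were used for 24 h to block prolyl hydroxylation, the step through which HIF (hypoxia-inducible factor) is broken down in normal oxygen. The control is tagged as untreated, but by the protocol it carried 0.5 µl dimethyl sulfoxide (DMSO) per ml of medium, the same volume as the OD medium. The labels name water for the CoCl2 stock, whereas the methods of the study give DMSO to that medium also and state a higher DMSO concentration than the labels, so the DMSO level is uncertain and it is not settled whether CoCl2 and control cells differed in solvent. The labels give OD only by its supplier and a catalogue code. RNA was taken from whole cultures, in which fewer cells of a type and less RNA per cell cannot be told apart.

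Libraries held from 12925719 to 22332639 counts. Levels are given as CPM, the counts per 1000000 of a library's size after TMM (trimmed mean of M values) scaling, and as RPKM (CPM per 1000 nt of gene length) where genes are compared with one another. All 7 epithelial markers examined (EPCAM, KRT8, KRT18, KRT19, CDH1, CDX2 and VIL1) were above 1 CPM in every library of both lines, though not at constant levels. In HT-29 with CoCl2, VIL1 (villin) fell by 2.62 log2 units and CDX2, an intestinal transcription factor gene, by 1.46, while KRT19 rose by 2.35, and in Caco-2 with CoCl2 the keratin genes KRT8, KRT18 and KRT19 rose by 1.06, 1.35 and 1.23. VIL1 also fell with OD in HT-29, by 1.15. The 6 enterocyte markers (ALPI, SI, FABP2, APOA1, APOA4 and APOB) together reached 4635 to 6869 CPM in Caco-2 libraries and 8.15 to 14.6 CPM in HT-29 libraries. Within the Caco-2 sum, APOB fell by 1.89 log2 units with CoCl2 and by 0.74 with OD, and APOA4 rose by 2.22 and 1.31. SI, FABP2 and ALPI also fell with CoCl2 there, by 1.33, 1.27 and 0.47, while APOA1 rose by 0.55. The part of these marker shifts in the changes of NDRG genes was not tested. The 7 immune, endothelial and fibroblast markers together stayed between 19.0 and 39.8 CPM in Caco-2 and between 2.54 and 7.65 CPM in HT-29. The mean TMM factor was 1.14 in the control groups of both lines, 0.909 and 0.794 in the CoCl2 groups of Caco-2 and HT-29, and 1.02 and 1.05 in the OD groups. With library size alone, the median change over all genes (log2) under CoCl2 moved from -0.03 to -0.35 in Caco-2 and from -0.03 to -0.66 in HT-29. Under OD it moved from -0.02 to -0.18 in Caco-2 and from 0.01 to -0.13 in HT-29. Changes of NDRG members, large or small, are therefore relative to these medians.

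All 4 members were expressed and passed the filter on low counts in both lines. NDRG1 rose strongly with both agents in both lines, and NDRG4 rose with CoCl2 in both lines and with OD in Caco-2. NDRG2 fell with CoCl2 in both lines and with OD in HT-29, and NDRG3 moved by less than 1 log2 unit in every comparison. A change was counted as called when its FDR, the Benjamini-Hochberg adjusted p of edgeR's quasi-likelihood test, was under 0.05 and its log2 fold change was over 1 in size. By this measure 2 of 4 members were called for CoCl2 in Caco-2 (NDRG1 and NDRG4), beside 23.4% of the 16034 genes tested, and 1 of 4 for OD in Caco-2 (NDRG1), beside 11.7%. In HT-29, 3 of 4 members were called for CoCl2 (NDRG1, NDRG2 and NDRG4), beside 41.3% of the 15812 genes tested, and 1 of 4 for OD (NDRG1), beside 17.1%. With 4 members these counts are a description. The CoCl2 and OD comparisons of a line share its 3 control libraries.

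**Figure D1:**
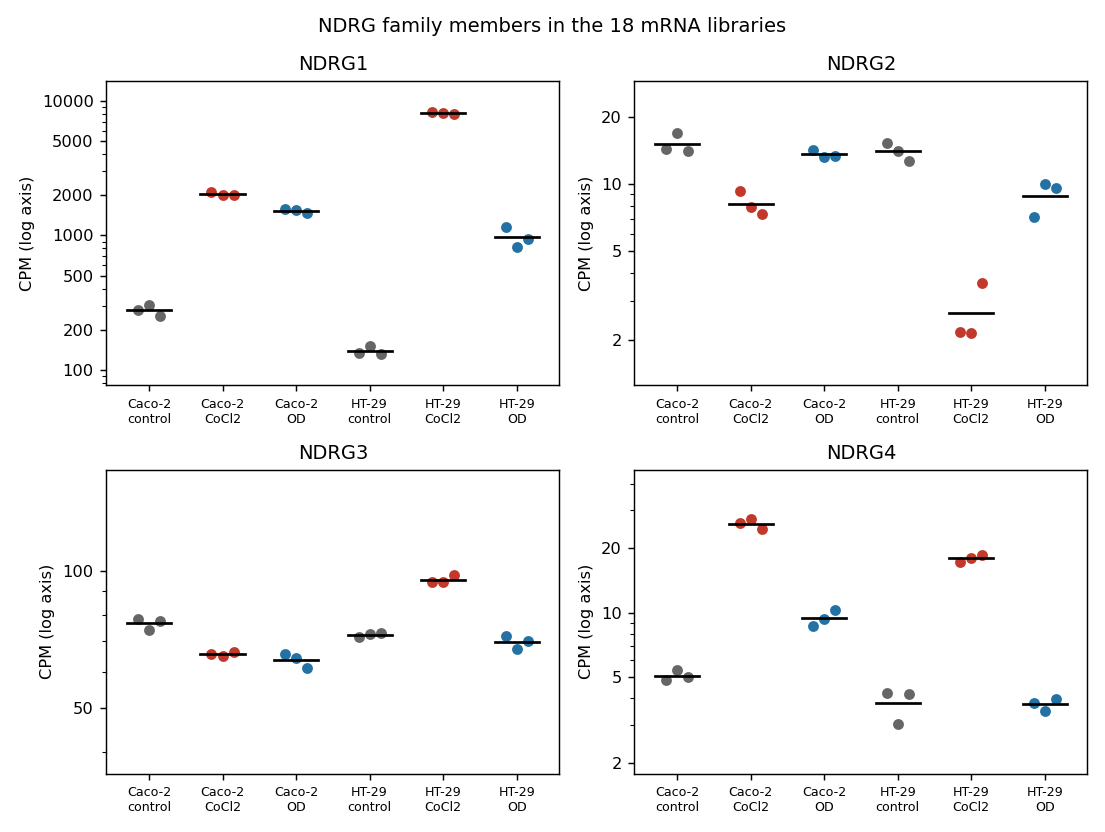
Level of each NDRG member in the 18 mRNA libraries (CPM on TMM-scaled library sizes, log axis, each panel with its own range). Points are libraries, 3 per group, and the bar is the group mean; NDRG1 runs from 132 CPM in an HT-29 control library to 8224 CPM in an HT-29 CoCl2 library, while NDRG3 stays between 61.0 and 97.8 CPM.

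NDRG1 (ENSG00000104419.17) lies on the minus strand of chromosome 8, from 133237175 to 133302022 in GRCh38. In Caco-2 control libraries NDRG1 stood at 278, 305 and 253 CPM. With CoCl2 the 3 Caco-2 libraries held 2102, 1992 and 2009 CPM, and with OD they held 1573, 1547 and 1473 CPM. All treated Caco-2 libraries were thus several times above all controls, and the CoCl2 libraries were all above the OD libraries. The mean was 279 ± 26.0 CPM in control, 2035 ± 59.1 with CoCl2 and 1531 ± 51.9 with OD (SD, n = 3). NDRG1 rose 7.30-fold with CoCl2 (95% confidence interval 6.50 to 8.20; log2 fold change 2.87, SE 0.0814, edgeR FDR 2.99e-19). With OD it rose 5.48-fold (interval 4.89 to 6.15; log2 fold change 2.46, SE 0.0801, edgeR FDR 1.18e-17). The 2 agents, each used at its own single concentration, differed by 0.41 log2 units (SE 0.0756, edgeR FDR 7.21e-05), the CoCl2 level being 1.33 times that with OD.

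In HT-29 control libraries NDRG1 was at 134, 151 and 132 CPM. The HT-29 CoCl2 libraries held 8224, 8111 and 8012 CPM, and those with OD held 1162, 819 and 946 CPM. The CoCl2 libraries lay close together and far above the rest, and the OD libraries varied more among themselves, without reaching either other group. Group means were 139 ± 10.7 CPM in control, 8116 ± 106 with CoCl2 and 976 ± 173 with OD (SD, n = 3). The CoCl2 change was 62.8-fold (interval 55.3 to 71.5; log2 fold change 5.97, SE 0.0902, edgeR FDR 2.16e-27). Without TMM scaling the fold was smaller: NDRG1 held 0.0149% to 0.0172% of all counts in controls and 0.636% to 0.655% with CoCl2. OD raised NDRG1 7.08-fold (interval 6.32 to 7.93; log2 fold change 2.82, SE 0.0794, edgeR FDR 8.96e-21). CoCl2 exceeded OD by 3.15 log2 units in HT-29 (SE 0.0782, edgeR FDR 1.54e-22), or 8.87-fold. In the direct comparison of the agents, 1 of 4 members was called in Caco-2 (NDRG4), beside 11.7% of all genes, and 3 of 4 in HT-29 (NDRG1, NDRG2 and NDRG4), beside 29.9%.

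The NDRG1 response to CoCl2 was larger in HT-29 than in Caco-2 by 3.00 log2 units (SE 0.120, edgeR FDR 2.15e-20, interaction over 18 libraries). Of the 4 members, 2 were called for this difference between the lines (NDRG1 and NDRG2), beside 21.6% of 17921 genes. For OD the difference was 0.35 log2 units (SE 0.118, edgeR FDR 0.0152), and it was no longer past the threshold without the highest OD library of HT-29, replicate 1 (0.20, edgeR FDR 0.128), or without Caco-2 control replicate 2 (0.28, edgeR FDR 0.0718). None of the 4 members was called for the line difference in the OD response by edgeR or DESeq2, beside 15.2% of genes by edgeR, while all 4 had an edgeR FDR under 0.05, beside 42.9%. Control cells of HT-29 held less NDRG1 than those of Caco-2, with a log2 difference of -1.002 (SE 0.0855, edgeR FDR 1.15e-12). NDRG1 was the 1 member of 4 called between the control groups, beside 45.8% of genes, and it stood at the edge of the size threshold, with a difference between -1.07 and -0.93 as single libraries were left out.

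Among all genes tested, 28 had a larger log2 fold change than NDRG1 with CoCl2 in HT-29, or 0.177%. In Caco-2, 141 genes exceeded NDRG1 with CoCl2 (0.879%) and 64 with OD (0.399%), and in HT-29, 140 did with OD (0.885%). By the mean of the deposited log2 RPKM values, NDRG1 moved from rank 1213 of 13153 genes in Caco-2 controls to rank 165 with CoCl2 and 175 with OD. From rank 2895 of 12431 in HT-29 controls it moved to rank 42 with CoCl2 and 271 with OD. NDRG1 transcripts made up 0.636% to 0.655% of all counts in the HT-29 CoCl2 libraries.

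**Figure D2:**
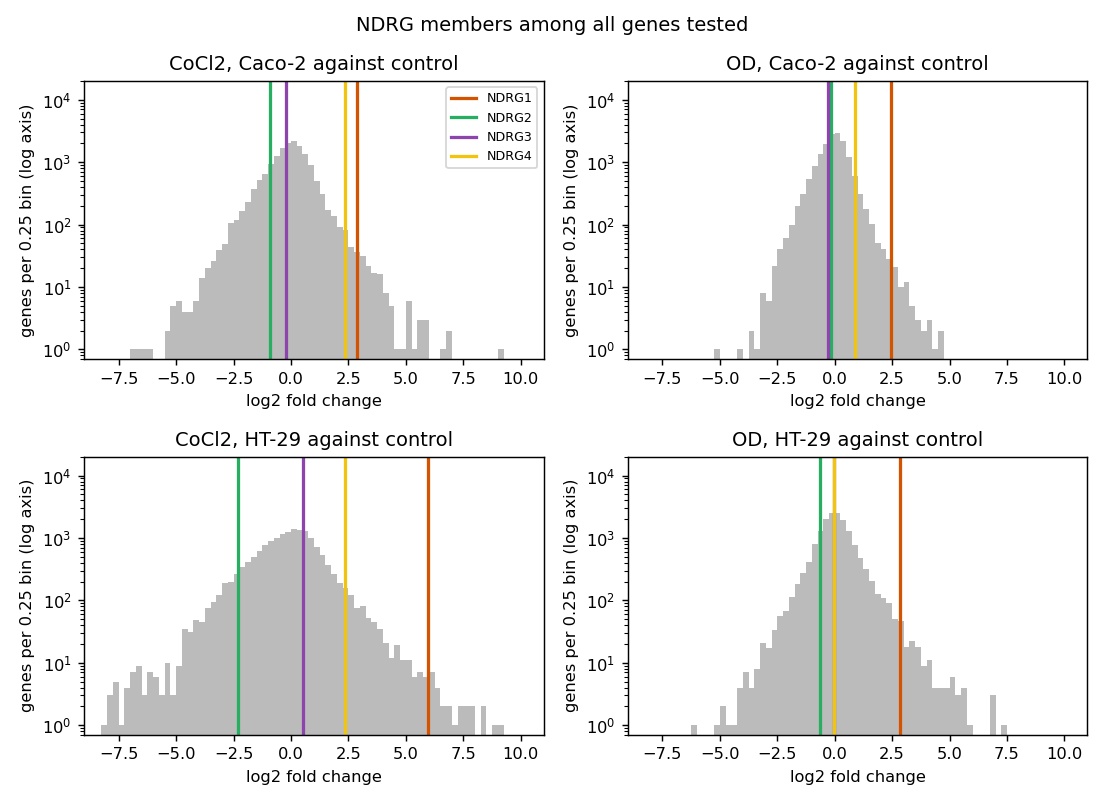
Distribution of log2 fold changes of all genes tested (grey bars, number of genes per 0.25 log2 bin, log axis) in the 4 treatment comparisons, with a coloured line at each NDRG member. NDRG1 sits in the right tail of all panels, at 2.87, 2.46, 5.97 and 2.82; with OD in HT-29 the line of NDRG3 (-0.04) lies under that of NDRG4 (-0.01).

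NDRG4 (ENSG00000103034.15), a member known from neurons and heart muscle, lies on the plus strand of chromosome 16, from 58462846 to 58513628. The promoter table from RefSeq (GRCh38.p14) holds 4 windows of 250 bases before an NDRG4 start and 5 before an NDRG2 start. It holds none for NDRG1 or NDRG3, which were therefore not searched. The windows present were searched on both strands for ACGTG and GCGTG, the cores to which HIF is known to bind. CACGTG, the E-box bound by MYC and MAX, was searched for as well. Of 35116 such windows in the table, 18.5% hold ACGTG, 32.2% GCGTG, 43.2% at least 1 of these, and 6.3% CACGTG, which contains ACGTG. In the NDRG4 windows, ACGTG and CACGTG had 0 matches, and GCGTG had 4 matches, all on the minus strand of the window at chr16:58463465-58463714, at 163, 79, 71 and 17 bases upstream of the start. The first 166 bases of this window lie outside annotated exons and are shown because NDRG4 rose with CoCl2 in both lines, with the match, read as CACGC on the plus strand, in capitals.
NDRG4, chr16:58463465-58463630, plus strand: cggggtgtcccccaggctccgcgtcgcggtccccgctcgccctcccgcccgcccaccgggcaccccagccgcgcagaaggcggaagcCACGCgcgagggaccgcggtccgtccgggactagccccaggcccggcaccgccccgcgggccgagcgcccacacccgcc
A match says only that these letters are present in the window.

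In control cells NDRG4 was the member with the lowest level per length. Caco-2 control libraries held 4.86, 5.40 and 5.04 CPM of NDRG4. CoCl2 brought it to 26.3, 27.3 and 24.6 CPM, and OD to 8.67, 9.34 and 10.3 CPM. The 3 groups of Caco-2 did not overlap and stood in the order control, OD, CoCl2, with means of 5.10 ± 0.272, 9.43 ± 0.806 and 26.1 ± 1.39 CPM (SD, n = 3). NDRG4 rose 5.11-fold with CoCl2 (log2 fold change 2.35, SE 0.129, edgeR FDR 7.88e-14). It rose 1.85-fold with OD (log2 fold change 0.88, SE 0.139, edgeR FDR 1.06e-05), short of the size needed for a call. CoCl2 exceeded OD by 1.47 log2 units (SE 0.119, edgeR FDR 4.04e-10).

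In HT-29 the control libraries held 4.21, 3.03 and 4.20 CPM of NDRG4, from 53 to 106 counts. CoCl2 raised them to 17.2, 18.04 and 18.6 CPM, while the OD libraries held 3.82, 3.49 and 3.96 CPM. The OD libraries thus lay within the range of the controls, and the CoCl2 libraries were all above both. The CoCl2 change was 5.03-fold (log2 fold change 2.33, SE 0.118, edgeR FDR 3.97e-16). For OD the log2 difference from control was -0.01 (95% interval -0.32 to 0.29, edgeR FDR 0.944), and its sign turned when any of 3 single libraries was left out. CoCl2 was 2.34 log2 units above OD (SE 0.120, edgeR FDR 9.19e-16). Between the lines the CoCl2 responses of NDRG4 differed by -0.13 log2 units (interval -0.49 to 0.24, edgeR FDR 0.591). The OD response was lower in HT-29 than in Caco-2 by a log2 difference of -0.91 (SE 0.200, edgeR FDR 0.000307), not called because of its size. HT-29 controls held less NDRG4 than Caco-2 controls, with a log2 difference of -0.41 (SE 0.146, edgeR FDR 0.0115), which was -0.27 and no longer past the threshold without the lowest HT-29 control library, replicate 2 (edgeR FDR 0.109).

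NDRG2 (ENSG00000165795.25), a candidate tumour suppressor that MYC is known to repress, lies on the minus strand of chromosome 14, from 21016763 to 21070872. Of the 5 RefSeq windows before NDRG2 starts, 3 held 1 GCGTG each, 2 of these being overlapping windows that share the match, and none held ACGTG or CACGTG. The window just before the annotated 5′ end of the gene at 21070872 is shown because NDRG2 fell with CoCl2 in both lines. Its match, 155 bases upstream and read as CACGC in the direction of the gene, is in capitals, and the whole window lies outside annotated exons.
NDRG2, chr14:21070873-21071122, minus strand: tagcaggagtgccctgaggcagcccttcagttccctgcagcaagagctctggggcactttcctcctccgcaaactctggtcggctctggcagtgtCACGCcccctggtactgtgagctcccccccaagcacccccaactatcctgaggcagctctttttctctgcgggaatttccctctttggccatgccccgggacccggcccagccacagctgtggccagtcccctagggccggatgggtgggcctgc
The shared match of the overlapping windows lies in a stretch of 52 bases that is free of annotated exons.
NDRG2, chr14:21025141-21025192, minus strand: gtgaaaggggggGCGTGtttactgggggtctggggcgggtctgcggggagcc
Capitals here mark GCGTG as read in the direction of the gene.

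In Caco-2, NDRG2 stood at 14.4, 17.0 and 14.0 CPM in control libraries. With CoCl2 it was at 9.26, 7.92 and 7.32 CPM, and with OD at 14.2, 13.2 and 13.4 CPM. All CoCl2 libraries were below all others, and the OD libraries overlapped the controls. NDRG2 fell by 0.90 on the log2 scale with CoCl2 (SE 0.134, edgeR FDR 2.76e-06), from a mean of 15.1 ± 1.64 to 8.17 ± 0.994 CPM (SD, n = 3), a change just short of the size for a call, which it passed with library size alone (-1.22). With OD the mean was 13.6 ± 0.529 CPM and the log2 difference was -0.15 (interval -0.41 to 0.11, edgeR FDR 0.330), which became -0.31 with library size alone (edgeR FDR 0.0474). CoCl2 was below OD by a log2 difference of -0.75 (SE 0.135, edgeR FDR 6.34e-05).

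HT-29 controls held 15.2, 14.1 and 12.6 CPM of NDRG2. The CoCl2 libraries held 2.17, 2.15 and 3.60 CPM, from 30 to 45 counts, and the OD libraries held 7.09, 9.98 and 9.58 CPM. The 3 groups did not overlap and stood in the order CoCl2, OD, control, with means of 2.64 ± 0.829, 8.88 ± 1.56 and 14.0 ± 1.31 CPM (SD, n = 3). With CoCl2, NDRG2 fell 4.93-fold (log2 fold change -2.30, SE 0.168, edgeR FDR 1.12e-12). With OD it fell by 0.63 on the log2 scale (SE 0.125, edgeR FDR 7.52e-05), and CoCl2 was below OD by a log2 difference of -1.67 (SE 0.181, edgeR FDR 4.36e-09). The fall with CoCl2 was larger in HT-29 than in Caco-2 by a log2 difference of -1.51 (SE 0.227, edgeR FDR 9.38e-07). For OD the line difference was -0.50 (SE 0.184, edgeR FDR 0.0270), and it passed the threshold in neither DESeq2 (adjusted p = 0.0645) nor edgeR when 1 of 4 single libraries was left out, HT-29 OD replicate 1 moving it most, to -0.36 (edgeR FDR 0.125). The other 3 were replicates 1 and 3 of the Caco-2 controls and replicate 1 of the HT-29 controls. The control groups differed by a log2 value of -0.12 (interval -0.38 to 0.14, edgeR FDR 0.387). ARHGEF40, from 21070273 to 21090248, overlaps the 5′ end of NDRG2 on the opposite strand and held 119 to 875 counts per library. The window shown at chr14:21070873-21071122 lies within that gene. The kit keeps strand, but the counting setting was not given in the sources used here, so the part of ARHGEF40 reads in the NDRG2 values was not tested.

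NDRG3 (ENSG00000101079.21) lies on the minus strand of chromosome 20, from 36651766 to 36746090. In Caco-2 it stood at 78.3, 74.2 and 77.4 CPM in controls, at 65.6, 65.1 and 66.3 CPM with CoCl2 and at 65.5, 64.2 and 61.0 CPM with OD. Both treated groups lay below the controls and overlapped each other. NDRG3 fell by 0.22 on the log2 scale with CoCl2 (SE 0.0748, edgeR FDR 0.0121), from 76.6 ± 2.20 to 65.7 ± 0.616 CPM (SD, n = 3), and without control replicate 1 its edgeR FDR was 0.0512. With OD it fell by 0.27 (SE 0.0747, edgeR FDR 0.00403) to 63.6 ± 2.31 CPM (SD, n = 3). The TMM factors, lower in the treated groups than in controls, make both falls smaller than with library size alone. The log2 difference between the agents was 0.05 (interval -0.11 to 0.21, edgeR FDR 0.607) and turned to -0.12 with library size alone.

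HT-29 controls held 71.5, 72.7 and 73.0 CPM of NDRG3. The CoCl2 libraries held 94.6, 94.3 and 97.8 CPM, and those with OD held 72.1, 67.2 and 70.1 CPM. Only the CoCl2 group stood apart from the controls in HT-29, with 95.6 ± 1.95 CPM beside 72.4 ± 0.801 in control and 69.8 ± 2.44 with OD (SD, n = 3). Relative to the other genes NDRG3 rose by 0.51 log2 units with CoCl2 (SE 0.0479, edgeR FDR 2.20e-10), but with library size alone the log2 fold change was -0.13 (edgeR FDR 0.0165). With OD the log2 difference was -0.04 (interval -0.14 to 0.06, edgeR FDR 0.487), and with library size alone it was -0.18 (edgeR FDR 0.00197). CoCl2 was above OD by 0.55 log2 units (SE 0.0482, edgeR FDR 7.95e-11), a difference that shrank to 0.05 with library size alone (edgeR FDR 0.341). The CoCl2 responses of the lines differed by 0.62 log2 units (SE 0.0853, edgeR FDR 1.86e-07), and by 0.42 with library size alone. For OD the line difference was 0.22 (SE 0.0853, edgeR FDR 0.0399), and the FDR rose to 0.111 at most as single libraries were left out. The control groups of the lines differed by a log2 value of -0.08 (interval -0.20 to 0.04, edgeR FDR 0.210), with DESeq2 giving -0.15 (adjusted p = 0.00645).

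**Figure D3:**
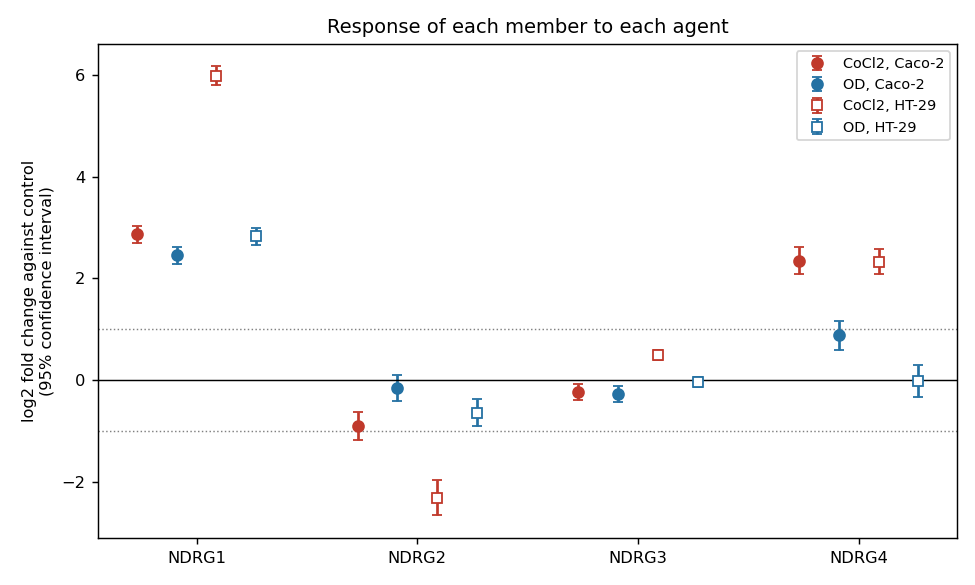
Log2 fold change of each NDRG member against control for CoCl2 (red) and OD (blue) in Caco-2 (filled circles) and HT-29 (open squares), from edgeR with 95% confidence intervals and 3 libraries per group; dotted lines mark the size needed for a call. NDRG1 is above 2 in all 4 comparisons and reaches 5.97 with CoCl2 in HT-29, NDRG4 is near 2.35 with CoCl2 in both lines, and NDRG3 stays between -0.27 and 0.51.

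Per length, NDRG1 and NDRG3 stood far above NDRG2 and NDRG4 in control cells. Gene lengths read from the deposited RPKM values were 9772 nt for NDRG1, 7511 nt for NDRG2, 3243 nt for NDRG3 and 9597 nt for NDRG4. In Caco-2 controls the mean levels were 28.5 RPKM for NDRG1, 23.6 for NDRG3, 2.01 for NDRG2 and 0.531 for NDRG4. In HT-29 controls NDRG3 was the highest with 22.3 RPKM, followed by NDRG1 with 14.2, NDRG2 with 1.86 and NDRG4 with 0.397. The groups of 3 libraries did not overlap between neighbours in either order, which does not cover an error in gene length. Exons annotated in GENCODE v44 cover 12002 nt for NDRG1 and 3260 nt for NDRG3. A longer NDRG1 length lowers its level and a shorter one raises it. The order of NDRG1 and NDRG3 in controls is thus not settled, and the shares below depend on the lengths used. The summed family level rose from 54.7 ± 2.39 RPKM in Caco-2 controls to 232 ± 6.16 with CoCl2 and 179 ± 5.98 with OD (SD, n = 3). In HT-29 it went from 38.8 ± 1.09 to 862 ± 10.2 with CoCl2 and 123 ± 18.3 RPKM with OD (SD, n = 3). NDRG1 made up 52.1% of the summed level in Caco-2 controls, 89.6% with CoCl2 and 87.5% with OD. Its share in HT-29 was 36.7% in controls, 96.3% with CoCl2 and 81.0% with OD, and the share of NDRG3 went from 57.5% to 3.42% with CoCl2 and 17.7% with OD. NDRG4 overtook NDRG2 with CoCl2, at 2.72 against 1.09 RPKM in Caco-2 and 1.87 against 0.351 RPKM in HT-29, while NDRG2 stayed above NDRG4 in controls and with OD.

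**Figure D4:**
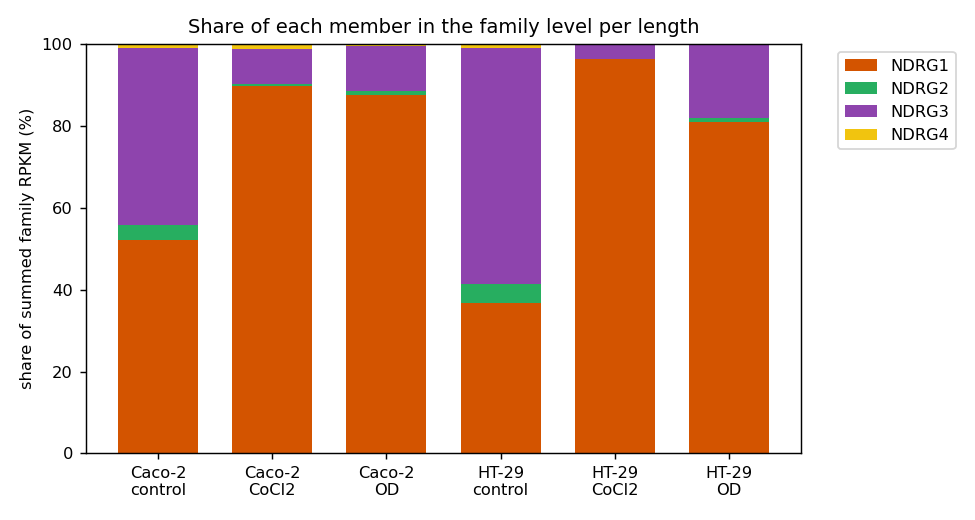
Share of each NDRG member in the summed family level (percent of the summed RPKM, group means of 3 libraries) in the 6 groups. NDRG1 and NDRG3 fill most of the control bars, and NDRG1 takes 89.6% and 96.3% of the level with CoCl2 in Caco-2 and HT-29.

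Genes known to act on the family were read from the same fits as 5 lists. Their counts are to be read against the share of all genes called in the same comparison, which was 23.4% in Caco-2 and 41.3% in HT-29 for CoCl2, and 11.7% and 17.1% for OD. HIF pathway genes were considered first, since NDRG1 is a known HIF target. Of 10 listed, Caco-2 had 9 that could be tested and HT-29 had 8. With CoCl2, 2 were called higher and 1 lower in Caco-2, and 4 higher and 0 lower in HT-29, which became 2 higher and 1 lower with library size alone. With OD, 1 was called higher and 1 lower in Caco-2, and 0 of 8 in HT-29 by edgeR or DESeq2. At an edgeR FDR under 0.05 of any size, a measure that 68.8% of all genes passed there, 5 were higher and 1 lower with OD in HT-29. The list's median log2 fold change was 0.40 in Caco-2 and 1.08 in HT-29 for CoCl2, and 0.28 and 0.32 for OD, where all genes tested had medians between -0.03 and 0.01. EGLN1, the main HIF prolyl hydroxylase, rose in Caco-2 by 2.95 log2 units with CoCl2 and by 2.24 with OD, while in HT-29 it rose by 3.03 and 0.43. EGLN3, its hypoxia-inducible relative, rose by 2.89 and 0.94 log2 units in Caco-2 and by 3.99 and 0.20 in HT-29. With OD in HT-29, the log2 fold changes of EGLN1 and EGLN3 were thus below 0.5 while that of NDRG1 was 2.82. EGLN2, the third prolyl hydroxylase gene, was called in 1 comparison, CoCl2 in HT-29, with a log2 fold change of 1.45. The HIF subunit gene HIF1A was also called there, with 1.40, and EPAS1, which encodes HIF-2 alpha, had values from 0.55 to 0.79 in the 4 comparisons and was not called. With library size alone, EGLN2 (0.81) and HIF1A (0.77) lost these calls, and the EPAS1 values ran from 0.12 to 0.65. The gene called lower in Caco-2, named after its values were seen, was HIF3A, which encodes another HIF alpha subunit, with log2 fold changes of -1.84 for CoCl2 and -1.24 for OD.

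In the MYC network, which includes the repressors the family is named for, 12 genes were listed, of which 12 could be tested in Caco-2 cells and 11 in HT-29 cells. With CoCl2, 3 were called higher and 2 lower in Caco-2 (2 and 2 with library size alone), and 5 higher and 3 lower in HT-29, where library size alone left 1 higher and 3 lower. OD gave 2 higher and 1 lower in Caco-2, and 0 higher and 1 lower in HT-29. List medians of the log2 fold change were 0.34 in Caco-2 and 0.44 in HT-29 for CoCl2, and 0.30 and 0.21 for OD. MYC moved in opposite directions in the lines: with CoCl2 it rose by 1.23 log2 units in Caco-2, from 43.7 ± 4.18 to 103 ± 8.57 CPM (SD, n = 3), and fell by 1.87 in HT-29, from 170 ± 7.61 to 43.1 ± 1.73 CPM (SD, n = 3). With library size alone the values were 0.91, no longer called, and -2.50. The line difference for MYC was -3.21 log2 units (SE 0.108, edgeR FDR 2.29e-22). With OD the MYC log2 fold change was 0.28 in Caco-2 and -1.12 in HT-29. MYCN, which encodes N-myc, stood at 19.5 ± 1.25 CPM in Caco-2 controls (SD, n = 3) and fell by 1.58 log2 units with CoCl2 and by 0.61 with OD there. In HT-29 libraries MYCN had 0 or 1 count and was not tested. MXI1 and MXD1, which compete with MYC for MAX, rose in all 4 comparisons, MXI1 by 1.81 and 1.45 log2 units with CoCl2 and OD in Caco-2 and by 1.60 and 0.38 in HT-29. The log2 fold changes of MXD1 were 2.15, 1.28, 1.98 and 0.42 in the same order. MYCL, a further MYC gene, fell by 1.15 log2 units with CoCl2 and by 1.09 with OD in Caco-2 cells and by 2.67 with CoCl2 in HT-29 cells, where OD gave -0.11 (edgeR FDR 0.343). Also called with CoCl2 in HT-29, and named after their values were seen, were MAX (1.20), MXD4 (1.15) and ZBTB17 (1.15) as higher and MXD3 (-1.22) as lower.

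Kinases that phosphorylate NDRG1 and NDRG2, with the mTORC2 complex above them, gave 10 genes tested in each line. In Caco-2, 0 of 10 were called with either agent by edgeR or DESeq2, while at an edgeR FDR under 0.05 of any size 3 were higher and 4 lower with CoCl2, beside 64.7% of all genes in either direction, and 4 higher and 2 lower with OD, beside 50.4%. Library size alone called 1 lower with CoCl2 there, MTOR, the kinase of the complex, named after its value was seen (-1.01). In HT-29, 3 were called higher and 1 lower with CoCl2, of which library size alone left 0 higher and 1 lower. With OD in HT-29, 0 were called by edgeR or DESeq2. At an edgeR FDR under 0.05 of any size, 5 were higher and 2 lower there, beside 68.8% of all genes in either direction. The list medians of the log2 fold change were 0.04 in Caco-2 and 0.36 in HT-29 for CoCl2, and 0.10 and 0.20 for OD. SGK1, whose product phosphorylates NDRG1, fell by 1.36 log2 units with CoCl2 in HT-29 and had 0.13 with CoCl2 in Caco-2 (edgeR FDR 0.245). SGK2, a related kinase gene, rose by 1.16 log2 units with CoCl2 in HT-29, and RICTOR, the defining subunit of mTORC2, by 1.49. The remaining gene called higher there, named after its value was seen, was GSK3B, a kinase gene, with 1.07.

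NDRG3 is known to link lactate to RAF-ERK signalling, and 10 genes of lactate handling and this cascade were tested in each line. With CoCl2, 3 were called higher and 0 lower in each line, with OD 3 higher and 0 lower in Caco-2, and 1 higher and 0 lower in HT-29. That call, of LDHA, was lost with RLE factors, library size alone and DESeq2. Library size alone also left 2 higher with each agent in Caco-2, where MAP2K1 had 0.84 and 0.87, and added SLC16A1, another lactate transporter gene named after its value was seen, as lower with CoCl2 in HT-29 (-1.39). In Caco-2 these genes had a median log2 fold change of 0.35 with CoCl2 and 0.31 with OD, and in HT-29 of 0.70 and 0.41. LDHA, the lactate dehydrogenase subunit that favours lactate formation, rose by 2.75 and 2.51 log2 units with CoCl2 and OD in Caco-2 and by 3.18 and 1.01 in HT-29. SLC16A3, a lactate exporter, rose by 3.53, 2.60, 2.99 and 0.94 log2 units in the same order, and MAP2K1, a kinase of the ERK cascade, by 1.16, 1.03, 2.10 and 0.66. NDRG3 itself had log2 fold changes of -0.22, -0.27, 0.51 and -0.04 in these comparisons.

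The last list held 5 partners and other regulators, all tested. CoCl2 gave 1 called higher in Caco-2 and 1 lower in HT-29, and OD gave 0 in Caco-2 by edgeR or DESeq2 and 1 lower in HT-29. At an edgeR FDR under 0.05 of any size, 1 was higher and 1 lower with OD in Caco-2, beside 50.4% of all genes. The medians of the log2 fold change were 0.41 in Caco-2 and 0.28 in HT-29 for CoCl2, and 0.15 and 0.16 for OD. The gene that passed in each case was EGR1, an immediate early factor known to bind the NDRG1 promoter, with a log2 fold change of 1.54 for CoCl2 in Caco-2 and, in HT-29, of -3.70 for CoCl2 and -4.87 for OD. CDH1, which encodes the E-cadherin that NDRG1 helps to recycle, had values from 0.18 to 0.74 in the 4 comparisons. CTNNB1, which encodes beta-catenin of the Wnt pathway, had values from 0.15 to 0.69, and neither gene was called. With library size alone the values ran from 0.05 to 0.27 for CDH1 and from -0.01 to 0.21 for CTNNB1.

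**Figure D5:**
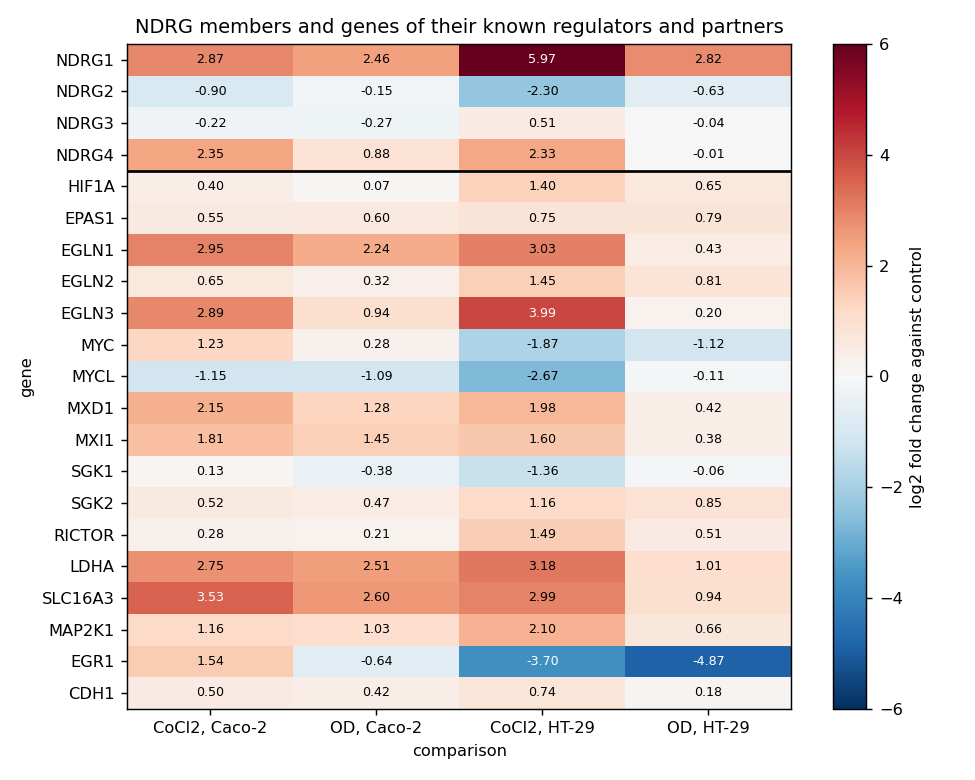
Log2 fold change against control of the NDRG members (top 4 lines) and of named genes from the 5 lists in the 4 treatment comparisons, with the value in each cell (red higher, blue lower). NDRG1 is high in all columns, whereas EGLN1 and EGLN3 drop to 0.43 and 0.20 with OD in HT-29, and MYC is 1.23 in Caco-2 and -1.87 in HT-29 with CoCl2.

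Likeness of response was measured as the Euclidean distance between the 4 log2 fold changes against control of a member and those of each of 13943 genes tested in both lines, for the 3 members called in at least 1 of them. NDRG1 had no gene within a distance of 1. The gene nearest to it was BHLHE40, a hypoxia-inducible transcriptional repressor, at a distance of 1.44. Its log2 fold changes were 3.14 in Caco-2 and 4.60 in HT-29 for CoCl2, and 2.16 and 2.67 for OD. OSGIN1, an oxidative stress gene, followed at 1.54, then AC107021.1, AL136531.2 and KIAA0319 at 1.59 to 1.86. For NDRG4, 48 genes lay within a distance of 1, with CLDN4, which encodes a tight junction claudin, the nearest at 0.289, and AL031009.1, GCNT7, SLC26A5 and GPR146 next. For NDRG2, 547 genes lay within that distance, led by SEMA3C, a secreted semaphorin gene, at 0.216, and LFNG, a modifier of Notch receptors, at 0.235, before CDC42-AS1, SDSL and SOGA1. The distances are a description, and the comparisons within each line share controls.

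The nearest protein-coding genes on each side of the members were also read. Beside NDRG1, ST3GAL1, a sialyltransferase gene, fell by 2.20 log2 units with CoCl2 and by 0.92 with OD in Caco-2, and had 0.26 and -0.13 in HT-29. Library size alone turned the HT-29 CoCl2 value of ST3GAL1 to -0.37 (edgeR FDR 6.44e-07). It also took the Caco-2 OD value to -1.08, which was called. CCN4, a secreted matrix protein gene on the other side, held 2 to 6 counts in Caco-2 controls, 9 to 14 with CoCl2 and 4 to 17 with OD. It was called higher there with both agents (log2 fold change 1.53, edgeR FDR 0.0256, and 1.49, edgeR FDR 0.0354), as NDRG1 was, but not with library size alone (edgeR FDR 0.0787 and 0.0629), and it was not tested in HT-29. Beside NDRG4, the log2 fold changes with CoCl2 were -0.04 for GINS3 and -0.06 for SETD6 in Caco-2 cells, and in HT-29, where NDRG4 had 2.33, they were -0.37 and -0.52. Library size alone took them to -0.36 and -0.38 in Caco-2, and to -1.01 and -1.16 in HT-29, where both were called lower. With OD, GINS3 had 0.89 in Caco-2 and fell by 1.01 log2 units in HT-29. Beside NDRG2, ZNF219 had -0.65 in Caco-2 and -0.20 in HT-29 with CoCl2, and -0.51 and -0.53 with OD. Its CoCl2 values were -0.97 and -0.84 with library size alone. SLC39A2, a zinc transporter gene on the other side of NDRG2, was called higher with both agents in Caco-2, from 0 to 1 count in control libraries to 5 to 15 with CoCl2 (edgeR FDR 0.00024) and 14 to 21 with OD (edgeR FDR 1.07e-05), controls too low for a fold, and was not tested in HT-29. Beside NDRG3, DSN1 had -0.28 in Caco-2 and -0.49 in HT-29 with CoCl2, and 0.63 and -0.07 with OD, and SLA2 held at most 5 counts and was not tested. Library size alone took DSN1 with CoCl2 in HT-29 to -1.13, which was called.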

How the data were processed

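Of the deposited tables, those for mRNA in 18 libraries were used, and the miRNA tables were not used here. For each gene the authors deposited raw read counts and, in another table, log2 of RPKM plus 1 with library sizes scaled within each line. Per the labels and methods, single-end reads from a strand-keeping kit were trimmed with cutadapt 2.10 and aligned with STAR 2.7.5b to GRCh38.p13. The counting tool and its strand setting are not given in the sources used here. A gene dropped by the authors in a line stands at 0 in the log2 table, which served only for gene lengths and level ranks.

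Counts were fitted in edgeR 4.0.16 (R 4.3.3) over the 9 libraries of a line, or over all 18 for comparisons between lines, with TMM scaling, filterByExpr and 1 coefficient per group. Two-sided quasi-likelihood tests gave p-values that were Benjamini-Hochberg adjusted over all genes tested (FDR). The design text calls the replicates biological. Within groups the libraries differed by more than counting error, the chi-square of their counts divided by its degrees of freedom being 2.94 to 8.56. Alternatives were RLE factors, library size alone, no filter on low counts, DESeq2 1.42.0, a replicate block, 1 fit over all libraries, and each library left out in turn. The fits were tested on simulated data. All columns had a sample (0 left over).

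The text names all members, the largest mean changes of each list (up to 3 genes), the genes MYC, MYCN, EGLN1, EGLN3, SGK1, LDHA, HIF1A and EPAS1, the nearest protein-coding neighbours, and the 5 genes most alike for each called member. An item of the last list is not reported here. Members, lists and tests were chosen with earlier results of these data known. Locations are from GENCODE v44 on GRCh38.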

Additional observations from a re-analysis of the deposited data

Results flagged for a closer look

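Members whose response to an agent differed between the lines by more than 1 log2 unit in the interaction test of edgeR over 18 libraries are given here. For NDRG1 with CoCl2, the response in HT-29 exceeded that in Caco-2 by 3.00 log2 units (SE 0.120, edgeR FDR 2.15e-20), with all 3 treated libraries above all controls in each line. For NDRG2 with CoCl2, the line difference was -1.51 log2 units (SE 0.227, edgeR FDR 9.38e-07), with all 3 treated libraries below all controls in each line. Of the lines, only Caco-2 had been differentiated, for 21 days, and line and culture state cannot be told apart.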

How the results depend on the processing

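The 9 comparisons of 4 members gave 36 results and 468 values under the alternatives, of which 455 kept their direction and their side of the call threshold (FDR under 0.05 and log2 size over 1). With library size alone, NDRG3 turned to -0.13 for CoCl2 in HT-29 and to -0.12 for CoCl2 against OD in Caco-2, and NDRG2 passed the threshold for CoCl2 in Caco-2 (-1.22). The log2 value of NDRG4 for OD in HT-29 ran from -0.15 to 0.076 as single libraries were left out, with a positive sign without HT-29 control replicate 1 (0.04), control replicate 3 (0.076) or OD replicate 2 (0.04). The control difference of NDRG1 between the lines lost its call with library size alone (-0.99), without a filter (-0.98) and with a replicate block (-0.999), and ran from -1.07 to -0.93 as single libraries were left out, losing the call without Caco-2 control replicate 2 (-0.93) or HT-29 control replicate 1 (-0.97) or 3 (-0.96). The line difference of NDRG4 with OD ran from -1.05 to -0.82 and was called without HT-29 control replicate 2 (-1.05). The causes were not tested, apart from the shift of all genes that library size alone brings. RLE factors, DESeq2 and the fit over all libraries changed no call of a member, and the total of called genes in each comparison stayed within 1.5 times its value under the alternatives. Its split by direction did not: library size alone took the share of called genes that were higher from 39.1% to 19.7% for CoCl2 and from 37.9% to 23.3% for OD in Caco-2, from 42.1% (2749 higher, 3775 lower) to 17.2% (1295 and 6250) for CoCl2 and from 55.7% to 43.4% for OD in HT-29, from 44.7% to 28.3% in Caco-2 and from 36.0% to 12.9% in HT-29 for CoCl2 against OD, and from 36.0% to 23.2% for the line difference with CoCl2.

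Libraries share replicate numbers across groups, but no pairing by number was detected. With 3 libraries per group, a weak pairing could be missed. Over 18 same-numbered pairs the correlation of deviations from the group means ran from -0.20 to 0.21 and was over 0.1 in 2. In 3 of the 18 pairs, the first library correlated best with its own number among the 3 libraries of the other group. The replicate block changed no other call of a member. At an FDR of 0.05 without regard to size, the block took the OD line difference of NDRG3 to an FDR of 0.0672, omission of the filter took that of NDRG3 to 0.212 and the control difference of NDRG4 to 0.0510, and RLE factors took the control difference of NDRG3 to 0.0194. Depth limits NDRG2 and NDRG4 most, with 30 to 45 counts of NDRG2 in HT-29 with CoCl2 and 53 to 106 counts of NDRG4 in HT-29 controls.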
